A study of Mus musculus with 2 samples.

Results

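The genes described here encode the constitutive subunits, assembly chaperones and activators of the mouse proteasome. They were chosen by name, as every gene of the count table whose symbol is Psma, Psmb, Psmc, Psmd or Psme followed by digits alone, without the immunoproteasome genes Psmb8, Psmb9 and Psmb10. This gave 40 of the 24532 genes in the table, and 38 of them passed the expression minimum used throughout, a mean of 5 CPM (reads of the gene scaled to a common library size) over both libraries. The measurements are RNA sequencing of cardiac myofibroblasts, the contractile, matrix-secreting fibroblasts of the injured heart, isolated from C57BL/6 mice 3 days after myocardial infarction. The siBcat1 cells were transfected with 12.5 nM of a single siRNA product against Bcat1, the gene of a cytosolic enzyme that transaminates leucine, isoleucine and valine, and the siControl cells received 12.5 nM of a control siRNA; both were cultured for 72 hours. Each group has 1 library, so no difference below has a replicate check or a p-value. How many animals the cells came from is not given in the labels.

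The proteasome is the barrel-shaped protease that degrades ubiquitin-tagged proteins in the cytosol and nucleus. Its 20S core stacks outer rings of alpha subunits, which gate the entrance, on inner rings of beta subunits, some of which carry the proteolytic sites. A 19S cap binds ubiquitin, removes it and threads the unfolded substrate into the core with a ring of ATPases, and other caps such as the 11S rings and PA200 open the core without ATP. In mammalian cells the subunit genes are known to be induced together by the transcription factor NRF1 when proteasome activity falls short.

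The siBcat1 library held 104581819 counts and the siControl library 127309329. Bcat1 itself had 99 counts with siBcat1 and 8891 with siControl. All 12 fibroblast markers examined passed the minimum, with a summed level of 22284 CPM with siBcat1 and 35705 CPM with siControl. The collagen genes Col1a1, Col1a2 and Col3a1 had 4345, 3919 and 2412 CPM with siBcat1, and 11058, 9535 and 4638 CPM with siControl. Of the 12 markers 10 were lower with siBcat1 and 2 were higher, where 46.8% of all measured genes were higher. These were Vim, with 6985 CPM with siBcat1 and 4724 CPM with siControl, and Thy1, with 141 CPM with siBcat1 and 90.9 CPM with siControl. The marker transcripts were long, with a median of 4268.5 bases against 2962 for all genes. Their median log2 fold was -0.60, and -0.37 with the trend on transcript length described below subtracted. On that scale 8 were below 0 and 4 above, where 50.2% of all genes were above. Of 8 macrophage markers, 3 (Adgre1, Ptprc and Fcgr1) had no count in either library, and the 8 summed to 29.0 CPM with siBcat1 and 10.4 CPM with siControl, of which Lyz2 had 21.3 CPM with siBcat1 and 5.46 CPM with siControl. Lymphocyte and neutrophil markers summed to 0.02 CPM or less in each library. Endothelial markers summed to 50.4 CPM with siBcat1 and 47.5 CPM with siControl. Of 6 cardiomyocyte markers, 4 were at 0 in each library, Myh6, Actn2 and Ryr2 in both, and Tnnt2 had 10.3 CPM with siBcat1 and 46.3 CPM with siControl. Since these are bulk libraries, a lower number of cells of a type and less RNA per cell cannot be told apart, and the part of these marker levels in the results below was not tested.

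In scaled counts the proteasome genes as a group were higher with siBcat1, 27 of the 38 with a log2 fold between 0.4 and 0.9 and 6 below 0, over a range of -0.62 to 1.09. Together the 40 genes took 826004 counts with siBcat1, 0.790% of the library [0.788 to 0.792], and 787266 counts with siControl, 0.618% [0.617 to 0.620]. Brackets hold exact (Clopper-Pearson) 95% intervals, which cover counting error only, not the spread between cultures, and take amplified reads as independent. Whether single reads or pairs were counted is not stated in the labels; if both reads of a pair were counted, all the intervals are too narrow. Scaled for library size and composition by trimmed mean of M values (TMM), the summed log2 fold, siBcat1 over siControl, was 0.44 [0.44 to 0.45]. Of the 38 measured genes 18 were at least 1.5-fold higher with siBcat1, where 17.6% of all 9935 measured genes were, and 1 was at least 1.5-fold lower, where 25.6% of all genes were. The other 19 lay between. The median log2 fold of the 38 genes was 0.56, against -0.06 for all genes, and 32 of them were above 0, where 46.8% of all genes were. Because 18 of the 38 genes lay within 0.1 of the limit on the log2 scale, the count of higher genes depends on small shifts of scale: it was 7 with library totals alone and 26 with upper-quartile scaling. With the deposited TPM values (abundance per transcript length, scaled to a common sum), 0 of the 38 were at least 1.5-fold higher, where 3.56% of all genes were, and 6 were at least 1.5-fold lower, where 46.5% of all genes were.

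**Figure D1:**
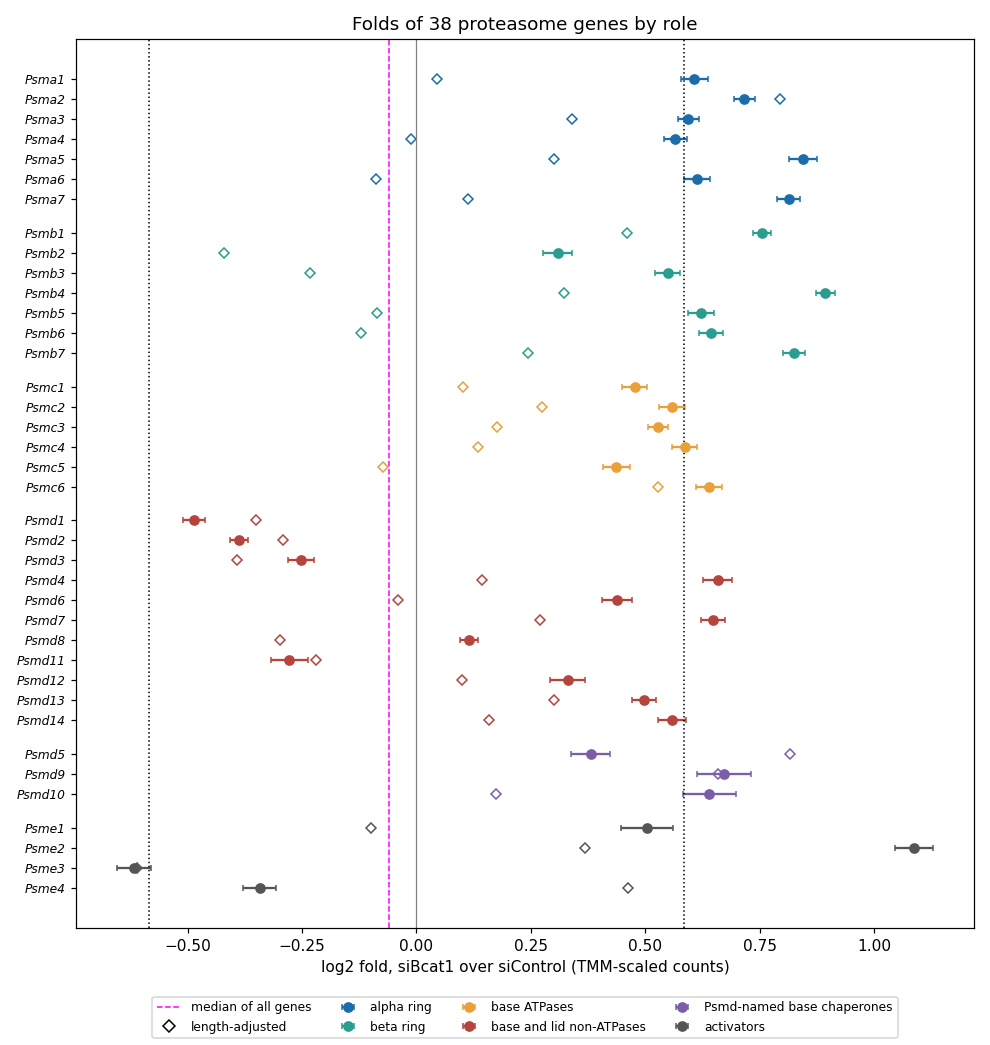
Log2 fold of each measured proteasome gene, siBcat1 over siControl, grouped by role; filled circles are TMM-scaled counts with exact 95% counting intervals and open diamonds are length-adjusted values. Dotted lines mark 1.5-fold, the dashed line is the median of all genes (-0.06), and the 6 genes left of 0 are Psmd1, Psmd2, Psmd3, Psmd11, Psme3 and Psme4.

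The difference between counts and TPM was one constant. For all 38 genes, the log2 fold in TPM was lower than the log2 fold in scaled counts by 0.50 or 0.51, and for all genes the median of this difference was -0.51, from -0.52 at the 5th percentile to -0.49 at the 95th. Differences among proteasome genes are therefore the same on both scales, while their distance from 0 is not. A further value moved with the folds. Across all 9887 genes with an annotated length, shorter transcripts had higher folds with siBcat1 (Spearman correlation -0.652, across genes, which are not replicates), and proteasome transcripts were short, with a median of 1527 bases against 2962 for all genes. Among the 38 genes the same correlation was -0.476. Each group below is given also as a length-adjusted fold, with the trend of all genes on transcript length subtracted. On that scale the median of the 38 genes was 0.12 against 0.00 for all genes, 23 were above 0, where 50.2% of all genes were, 3 were at least 1.5-fold higher, where 12.8% of all genes were, and 1 was at least 1.5-fold lower, where 14.3% of all genes were. What sets the length trend was not tested.

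**Figure D2:**
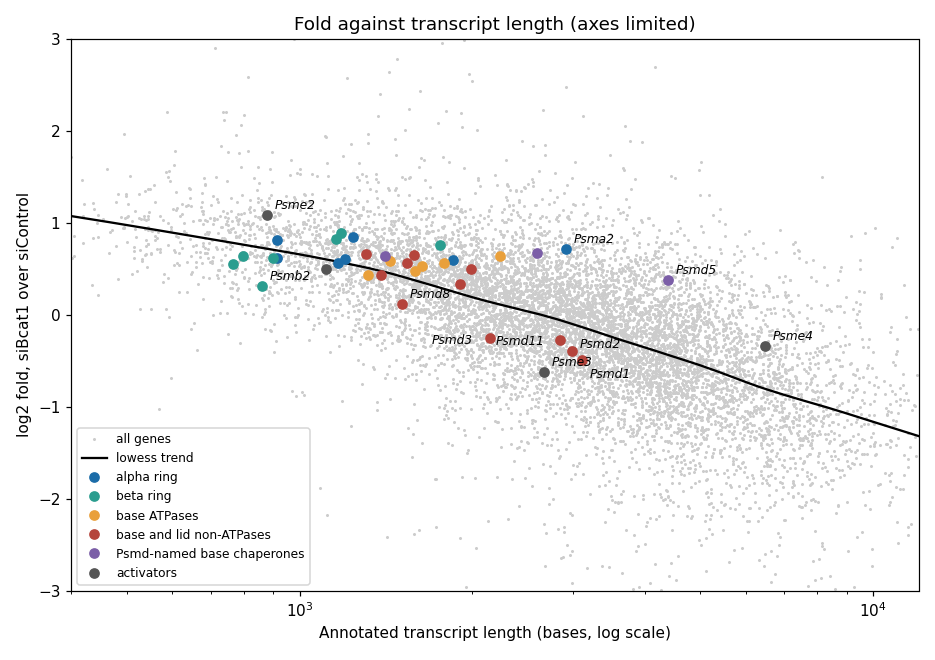
Log2 fold, siBcat1 over siControl, against annotated transcript length in bases on a log axis; grey points are all measured genes, the line is their lowess trend, and coloured points are proteasome genes by role. The axes leave out some genes at the extremes. Most core subunits lie near the falling line among short transcripts, and 15 of the 38 genes lie below it, the farthest being Psme3 at -0.61, Psmb2 at -0.42 and Psmd3 at -0.39.

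The alpha ring was uniform. Its 7 measured subunits ran from 0.57 in Psma4 to 0.84 in Psma5, with a median of 0.61 and 6 of 7 at least 1.5-fold higher with siBcat1. Psma5 (chromosome 3, 108256926 to 108279952, plus strand, GRCm38) had 20450 counts with siBcat1 and 14777 with siControl, or 202 CPM with siBcat1 and 112 CPM with siControl, a log2 fold of 0.84 [0.81 to 0.88]. Psma7 was next with 31295 counts with siBcat1 and 23107 with siControl (0.81 [0.79 to 0.84]). Psma2 followed with 32015 with siBcat1 and 25276 with siControl (0.72 [0.69 to 0.74]). These 3 alpha subunits stood a little above the others. Psma1 had 19647 with siBcat1 and 16734 with siControl (0.61 [0.58 to 0.64]), Psma6 had 23307 with siBcat1 and 19772 with siControl (0.61 [0.59 to 0.64]), and Psma3 had 32896 with siBcat1 and 28278 with siControl (0.59 [0.57 to 0.62]). At the low end, Psma4 had 26430 counts with siBcat1 and 23172 with siControl (0.57 [0.54 to 0.59]). The alpha subunits have no protease site of their own; their amino-terminal tails form the gate that caps must open. Length-adjusted, the ring's median was 0.11, from -0.087 in Psma6 to 0.79 in Psma2. The Psma2 value rests on an annotated length of 2911 bases, whereas its counts and TPM imply 986 bases, and with the implied length its adjusted fold was 0.06. Psma8, a variant alpha subunit of germ cells, was below the minimum, with 176 counts with siBcat1 and 56 with siControl.

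The beta ring spanned a wider range, from 0.31 in Psmb2 to 0.89 in Psmb4, with a median of 0.64 and 5 of 7 at least 1.5-fold higher. Psmb4 (chromosome 3, 94884324 to 94886958, minus strand), a structural subunit without a protease site, had 44602 counts with siBcat1 and 31162 with siControl, a log2 fold of 0.89 [0.87 to 0.91]. Psmb2, also structural, had 16166 counts with siBcat1 and 16934 with siControl, fewer with siBcat1 before scaling and higher after it (0.31 [0.28 to 0.34]). The pair differed from each other by 0.58 on the log2 scale. Of the other structural subunits, Psmb1 had 48634 counts with siBcat1 and 37376 with siControl (0.76 [0.74 to 0.77]), and Psmb3 had 23175 with siBcat1 and 20556 with siControl, a log2 fold of 0.55. The 3 catalytic subunits lay between Psmb2 and Psmb4. Psmb5, which carries the chymotrypsin-like site that bortezomib blocks, had 22468 counts with siBcat1 and 18938 with siControl (0.62 [0.59 to 0.65]). Psmb6, the caspase-like site, had 26568 with siBcat1 and 22073 with siControl (0.64 [0.62 to 0.67]). Psmb7, the trypsin-like site, was the highest of the 3, with 33374 with siBcat1 and 24452 with siControl (0.82 [0.80 to 0.85]). Length-adjusted, the ring's median turned to -0.086, with Psmb2 lowest at -0.42 and Psmb1 highest at 0.46; Psmb5 and Psmb6 also were below 0, at -0.086 and -0.12, and Psmb7 stayed above 0 at 0.24. The sign of the median depends on the length used: it was 0.030 with implied length and 0.052 with length and GC content, and Psmb6 was above 0 in both, at 0.030 and 0.018. With its implied length of 1082 bases, against 1758 annotated, Psmb1 had 0.15. Psmb11, the thymus-specific beta subunit, had no count in either library, which allows up to 0.0296 CPM with siBcat1 and 0.0228 CPM with siControl (3 counts).

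Levels per transcript length were of one order in the core. In TPM, the 14 constitutive core subunits ran from 200 in Psma3 to 678 in Psmb4 with siBcat1, and from 188 in Psma3 to 569 in Psmb1 with siControl. The highest was 3.39 times the lowest with siBcat1 and 3.03 times with siControl. Every core particle holds each subunit in equal number; the spread given here is one of transcript levels, and protein was not measured. The 17 cap subunits among the members, which by name leave out Shfm1 and Adrm1, had lower and more spread levels. Their median was 194 TPM with siBcat1 and 187 TPM with siControl. The median of the core was 371 TPM with siBcat1 and 339.8 TPM with siControl. These 17 cap subunits ran from 66.4 in Psmd11 to 352 in Psmd8 with siBcat1, a ratio of 5.31, and from 102 in Psmd12 to 462 in Psmd8 with siControl, a ratio of 4.54. Summed over its subunits, the core had a log2 fold of 0.69 [0.68 to 0.70] in scaled counts and the 17 cap subunits 0.26 [0.25 to 0.26]. The core transcripts were shorter, with a median of 1162.5 bases against 1636 for the cap. The median fold over subunits in scaled counts was 0.63 for the core and 0.48 for the cap. Length-adjusted, that median was 0.08 for the core and 0.10 for the cap.

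**Figure D3:**
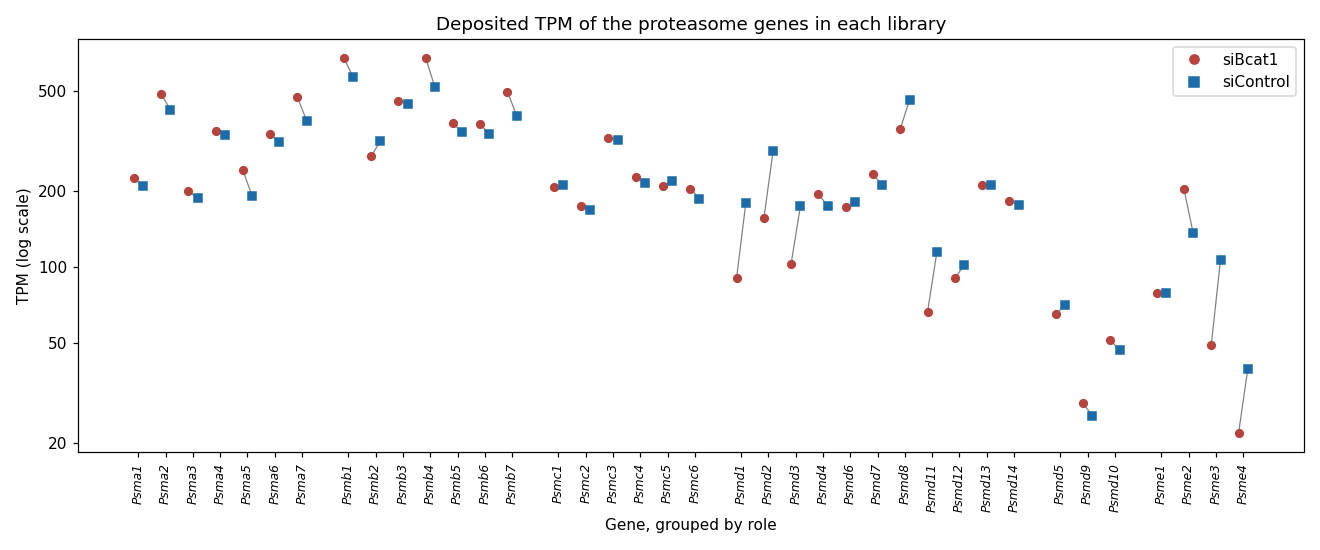
Deposited TPM of each of the 38 measured proteasome genes on a log axis, siBcat1 as circles and siControl as squares, 1 library each. Core subunits run from 188 to 678 TPM over both libraries, and the steepest lines downwards to siBcat1 are those of Psmd1, Psmd2, Psmd3, Psmd11, Psme3 and Psme4.

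The ATPases of the cap, which form the ring that unfolds substrates, were the most uniform of the 6 proteasome roles. All 6 lay between 0.44 in Psmc5 and 0.64 in Psmc6, with an SD among the genes of 0.07, and 2 of them passed 1.5-fold. Psmc6 had 22208 counts with siBcat1 and 18496 with siControl (0.64 [0.61 to 0.67]), and Psmc5 had 18604 with siBcat1 and 17834 with siControl (0.44 [0.41 to 0.47]). Between them were Psmc4 at 0.59, Psmc2 at 0.56, Psmc3 at 0.53 and Psmc1 at 0.48. In TPM the ATPases other than Psmc3 had between 174 and 227 with siBcat1 and between 168 and 220 with siControl. Length-adjusted, the ATPases had a median of 0.16, and 5 of 6 were above 0.

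The 11 non-ATPase subunits of the cap were divided, with folds from -0.49 to 0.66 and an SD of 0.44. Higher by at least 1.5-fold were 2, Psmd4 and Psmd7. Psmd4, the ubiquitin receptor also called Rpn10, had 18029 counts with siBcat1 and 14823 with siControl (0.66 [0.63 to 0.69]). Psmd7, an inactive partner of the deubiquitinase, had 25874 with siBcat1 and 21410 with siControl (0.65 [0.62 to 0.68]). Psmd14, the deubiquitinase that releases ubiquitin from the substrate and pairs with Psmd7 in the lid, had 19558 with siBcat1 and 17233 with siControl (0.56 [0.53 to 0.59]). Psmd14 was 0.09 below its partner (-0.09 on the log2 scale). Psmd13 at 0.50, Psmd6 at 0.44 and Psmd12 at 0.33 were also above 0, all 3 being lid subunits. Length-adjusted, the 11 non-ATPases had a median of -0.04 and an SD of 0.26, with 5 above 0 and 6 below. On that scale Psmd4 had 0.14, Psmd7 had 0.27 and Psmd14 had 0.16.

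Below 0 were 4 cap subunits, none of them past 1.5-fold in scaled counts. Psmd1 (chromosome 1, 86064619 to 86139295, plus strand), the large scaffold of the base called Rpn2, had 20434 counts with siBcat1 and 37126 with siControl, or 90.5 TPM with siBcat1 and 180 TPM with siControl, a log2 fold of -0.49 [-0.51 to -0.46]. Psmd2, the other large scaffold, called Rpn1, on which ubiquitin-like shuttle proteins dock, had 32001 counts with siBcat1 and 54346 with siControl (-0.39 [-0.41 to -0.37]). Psmd11 and Psmd3 are horseshoe-shaped lid subunits. Psmd11 had 8018 counts with siBcat1 and 12613 with siControl (-0.28 [-0.32 to -0.24]), and Psmd3 had 15352 with siBcat1 and 23725 with siControl (-0.25 [-0.28 to -0.22]). Psmd8, another lid subunit and the most abundant per length of the 17 cap subunits among the members, had 36958 with siBcat1 and 44268 with siControl (0.12 [0.10 to 0.14]). Psmd8 was above 0 in scaled counts but had -0.30 length-adjusted, and its TPM was 352 with siBcat1 and 462 with siControl. The lid subunits Psmd7 and Psmd3 thus differed by 0.90 on the log2 scale, which no scaling of whole libraries alters, although the proteins occur in equal number in the cap.

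By annotated length these 4 genes have 2148 to 3112 bases. Length-adjusted they had -0.35 in Psmd1, -0.29 in Psmd2, -0.22 in Psmd11 and -0.39 in Psmd3. For Psmd11 the counts and TPM imply 1731 bases, not the annotated 2848, and with the implied length its adjusted fold was -0.58. Together with Psme3 they were the 5 of 38 genes below 0 in all 8 settings in which single genes were computed (4 scalings of counts, TPM and 3 length adjustments), and in TPM all of them were at least 1.5-fold lower. In the other direction 15 of the 38 genes were above 0 in all 8 settings, among them Psma5, Psma7, Psmb1, Psmb4, Psmb7, Psmd4, Psmd7 and Psme2. The remaining 18 changed sign with the setting. The share of all genes that kept one sign in the 8 settings was not computed, so these counts have no background. The 4 scalings of counts differ by one constant for all genes, so the 8 settings are not independent. The 8 measured members with an annotated length over 2500 bases had a median fold of -0.31 and the 30 up to that length 0.59. For all genes the medians were -0.40 over 2500 bases and 0.40 up to that length.

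Psmd5, Psmd9 and Psmd10 are not part of the finished particle; they are chaperones that hold ATPases during assembly of the base. They were less abundant, with 28.8 to 64.8 TPM with siBcat1 and 25.7 to 70.7 TPM with siControl. Psmd9 had 5173 counts with siBcat1 and 4215 with siControl (0.67 [0.61 to 0.73]), Psmd10, also known as gankyrin, had 5152 with siBcat1 and 4289 with siControl (0.64 [0.58 to 0.70]), and Psmd5 had 9175 with siBcat1 and 9145 with siControl (0.38 [0.34 to 0.42]). Length-adjusted, Psmd5 was the highest of the 38 genes with 0.82, but its annotated length of 4397 bases exceeds the 2093 bases that counts and TPM imply, and with the implied length it was 0.21. Psmd9 had 0.66 with annotated and 0.69 with implied length, and Psmd10 had 0.17 with annotated and 0.23 with implied length. The median of the 3 chaperones was 0.66 with annotated lengths and 0.23 with implied lengths. Of the exon bases of Psmd9, 25.5% are shared with an antisense transcript, Gm26745.

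The activators held both ends of the range. Psme2 (chromosome 14, 55587440 to 55591101, minus strand) encodes the beta subunit of the 11S ring PA28 and was the highest of the 38 genes. It had 12648 counts with siBcat1 and 7725 with siControl, or 125 CPM with siBcat1 and 58.8 CPM with siControl. Its log2 fold was 1.09 [1.05 to 1.13], the one value past 2-fold in scaled counts, where 5.58% of all genes were at least 2-fold higher; no member was 2-fold lower, where 13.0% of all genes were. Psme1, the alpha subunit of the same ring, had 5352 counts with siBcat1 and 4899 with siControl (0.50 [0.45 to 0.56]), 0.58 below its partner. Length-adjusted, Psme2 had 0.37 (0.42 with its implied length), not past 1.5-fold and not the highest of the 38 genes, and Psme1 had -0.10. In TPM, Psme2 had 204 with siBcat1 and 136 with siControl, and Psme1 had 79.0 with siBcat1 and 79.1 with siControl. The ratio of Psme2 to Psme1 was 2.58 with siBcat1 and 1.72 with siControl.

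Psme3 (chromosome 11, 101316213 to 101323537, plus strand) encodes PA28-gamma, the nuclear 11S ring, and was the 1 gene at least 1.5-fold lower. It had 8909 counts with siBcat1 and 17731 with siControl, or 49.1 TPM with siBcat1 and 107 TPM with siControl, a log2 fold of -0.62 [-0.65 to -0.58]. It was also the lowest of the 38 length-adjusted, at -0.61. Psme2 and Psme3 differed by 1.70, and the TPM of Psme1 and Psme2 together was 5.76 times that of Psme3 with siBcat1 and 2.01 times with siControl. Psme4, the large single-chain cap PA200, had 9759 counts with siBcat1 and 16057 with siControl (-0.34 [-0.38 to -0.31]). With a transcript of 6491 bases it was above 0 after length adjustment, at 0.46.

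A list of 9 interferon-stimulated genes was chosen with their values known, so it does not stand for the class. Of the 9, 7 were measured and 6 of these were at least 1.5-fold higher with siBcat1, where 17.6% of all genes were. The median log2 fold of the 7 was 2.23 (2.24 length-adjusted). The summed level of all 9 was 366 CPM with siBcat1 and 113 CPM with siControl. Their part in the values of Psme2 and Psme1 was not tested. The immunoproteasome genes, which replace the catalytic subunits after interferon, were at low levels. Psmb8 had 1487 counts with siBcat1 and 940 with siControl (1.04 [0.92 to 1.16]), and Psmb10 had 4505 with siBcat1 and 3302 with siControl (0.82 [0.76 to 0.89]). Psmb9, below the minimum, had 159 with siBcat1 and 147 with siControl. Length-adjusted, Psmb8 had 0.68 (0.53 with its implied length) and Psmb10 had 0.31 (0.33 with its implied length). Against the constitutive subunit each replaces, Psmb8 had 4.71% of the TPM of Psmb5 with siBcat1 and 3.53% with siControl. For Psmb10 over Psmb7 the values were 10.3% in each library, and for Psmb9 over Psmb6 they were 0.767% with siBcat1 and 0.853% with siControl.

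Promoter windows are shown for the members at the ends of the range, Psme2 and Psmb4 at the top and Psme3 and Psmd1 at the bottom, because the subunit genes are known to be controlled together through antioxidant response elements (AREs), the sites NRF1 binds. They come from RefSeq on GRCm38.p6 and run from 250 bases before the transcription start to 50 after it. Capitals mark the ARE core TGANNNNGC (runs of 9 bases) and the ETS factor core CCGGAAG (runs of 7 bases), searched on both strands; overlapping matches would run together.
Psme2, chr14:55591052-55591351, minus strand: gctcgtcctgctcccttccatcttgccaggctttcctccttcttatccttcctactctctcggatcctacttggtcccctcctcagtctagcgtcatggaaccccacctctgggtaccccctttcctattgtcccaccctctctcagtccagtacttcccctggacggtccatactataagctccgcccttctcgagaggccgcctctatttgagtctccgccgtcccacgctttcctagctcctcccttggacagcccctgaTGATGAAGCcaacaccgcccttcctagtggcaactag
Psmb4, chr3:94886909-94887208, minus strand: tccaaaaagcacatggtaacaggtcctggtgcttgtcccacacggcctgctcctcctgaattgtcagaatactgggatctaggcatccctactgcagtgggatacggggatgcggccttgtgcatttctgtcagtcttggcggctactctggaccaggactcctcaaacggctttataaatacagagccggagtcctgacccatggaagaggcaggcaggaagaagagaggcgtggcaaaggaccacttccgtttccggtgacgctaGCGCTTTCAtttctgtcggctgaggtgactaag
Psme3, chr11:101315963-101316262, plus strand: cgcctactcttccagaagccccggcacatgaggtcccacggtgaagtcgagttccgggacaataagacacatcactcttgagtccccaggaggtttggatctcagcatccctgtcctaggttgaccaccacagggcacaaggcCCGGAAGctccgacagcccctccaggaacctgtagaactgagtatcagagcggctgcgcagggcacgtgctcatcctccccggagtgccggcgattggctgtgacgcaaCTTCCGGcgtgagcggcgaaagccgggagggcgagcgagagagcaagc
Psmd1, chr1:86064369-86064668, plus strand: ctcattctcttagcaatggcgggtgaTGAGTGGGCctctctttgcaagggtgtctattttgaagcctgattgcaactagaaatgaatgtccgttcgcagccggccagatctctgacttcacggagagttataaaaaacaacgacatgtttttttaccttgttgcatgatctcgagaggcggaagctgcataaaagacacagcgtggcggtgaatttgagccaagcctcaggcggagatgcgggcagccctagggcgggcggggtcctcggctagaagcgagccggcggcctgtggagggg
Psme2, Psmb4 and Psmd1 each hold 1 ARE core and no ETS core, and Psme3 holds 2 ETS cores and no ARE core. Among the 38 measured genes 32 had a window, in 35 windows. The ARE core was in 20 of the 35 (57.1%), against 41.3% of all 32851 windows in the table; the ETS core was in 13 (37.1%), against 8.86%; and CCAAT, the letters NF-Y binds, was in 12 (34.3%), against 37.4%. The 18 genes with an ARE core had a median log2 fold of 0.59 and the 14 without had 0.53, while the 12 with an ETS core had 0.46 and the 20 without had 0.60. A match describes letters in the window and does not show binding.

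Other genes of the pathway did not share one direction. The 5 measured assembly factors of the core, in a list of 6, had folds from 0.44 to 0.94. Of these, 3 were at least 1.5-fold higher, where 17.6% of all genes were. Pomp, the maturation factor built into the nascent core, had 19226 counts with siBcat1 and 13832 with siControl (0.85 [0.82 to 0.88]), Psmg3 was the highest at 0.94 [0.84 to 1.03] and Psmg2 the lowest at 0.44 [0.35 to 0.52]. Length-adjusted, their median of 0.70 became -0.17. Of 14 genes for proteins that bind the proteasome, 2 were at least 1.5-fold higher, where 17.6% of all genes were. At least 1.5-fold lower was 1, where 25.6% of all genes were. The median of the 14 was -0.13 (0.13 length-adjusted). They include Adrm1, a cap subunit gene outside the name rule, as Shfm1 is. Adrm1 had 10069 counts with siBcat1 and 11963 with siControl (0.13, and -0.28 length-adjusted). The highest of the 14 was Shfm1, which encodes the smallest cap subunit, Sem1 or Rpn15. Shfm1 had 23482 counts with siBcat1 and 11675 with siControl (1.38 [1.35 to 1.42]). Length-adjusted it had 0.95, or 0.45 with its implied length, and its TPM was 690 with siBcat1 and 375 with siControl. The lowest was Zfand2a, which encodes an arsenite-inducible zinc finger protein, with 1815 counts with siBcat1 and 3718 with siControl (-0.66 [-0.74 to -0.58], and -0.52 length-adjusted).

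Of 7 measured genes in a list of NRF1, its processing factors and the related factor NRF2, 4 were at least 1.5-fold lower and 1 higher. Of all genes, 25.6% were at least 1.5-fold lower and 17.6% higher. The median fold of the 7 was -0.73. Their median transcript was 3316 bases long, and length-adjusted the median fold was -0.17. On that scale 1 was lower, where 14.3% of all genes were, and 1 was higher, where 12.8% of all genes were. Nfe2l1, which encodes NRF1, had 16123 counts with siBcat1 and 34702 with siControl (-0.73 [-0.76 to -0.70], and -0.36 length-adjusted). Ddi2, the protease that cleaves NRF1 into its active form, had 1517 with siBcat1 and 5015 with siControl (-1.35 [-1.43 to -1.27], and -0.23 length-adjusted, or -1.13 with its implied length in place of the annotated 9553 bases). Ngly1, which removes sugars from NRF1, was the highest with 4345 counts with siBcat1 and 3185 with siControl (0.82 [0.76 to 0.89], and 0.91 length-adjusted). Nfe2l2, which encodes NRF2, had 17863 with siBcat1 and 20133 with siControl (0.20 [0.17 to 0.23], and -0.0045 length-adjusted). Ubiquitin and E1 genes numbered 6, with 2 past 1.5-fold in each direction: Rps27a, which encodes ubiquitin fused to a ribosomal protein, had 1.60 [1.59 to 1.62], and Uba6, an E1 enzyme, had -0.86 [-0.94 to -0.79]. Length-adjusted, 1 of the 6 was past 1.5-fold higher and 0 lower, with Rps27a at 0.84 and Uba6 at -0.042.

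Other multi-subunit complexes show what such a group can look like in these libraries. The 8 subunits of the chaperonin CCT, which folds actin and tubulin, had folds from 0.46 to 0.68, a median of 0.55 and an SD of 0.07. Length-adjusted, 7 of them had a length and a median of 0.37, above the 0.08 of the core and the 0.10 of the cap. The COP9 signalosome, whose subunits are related to the lid of the proteasome, had 9 measured genes with a median of 0.28 (0.03 length-adjusted). None was at least 1.5-fold higher, where 17.6% of all genes were, and 1 was at least 1.5-fold lower, where 25.6% were. Cops7a was lowest at -0.64 [-0.68 to -0.60] and Cops6 highest at 0.46 [0.43 to 0.48]. With 1 library a group, none of these differences between complexes was tested.

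**Figure D4:**
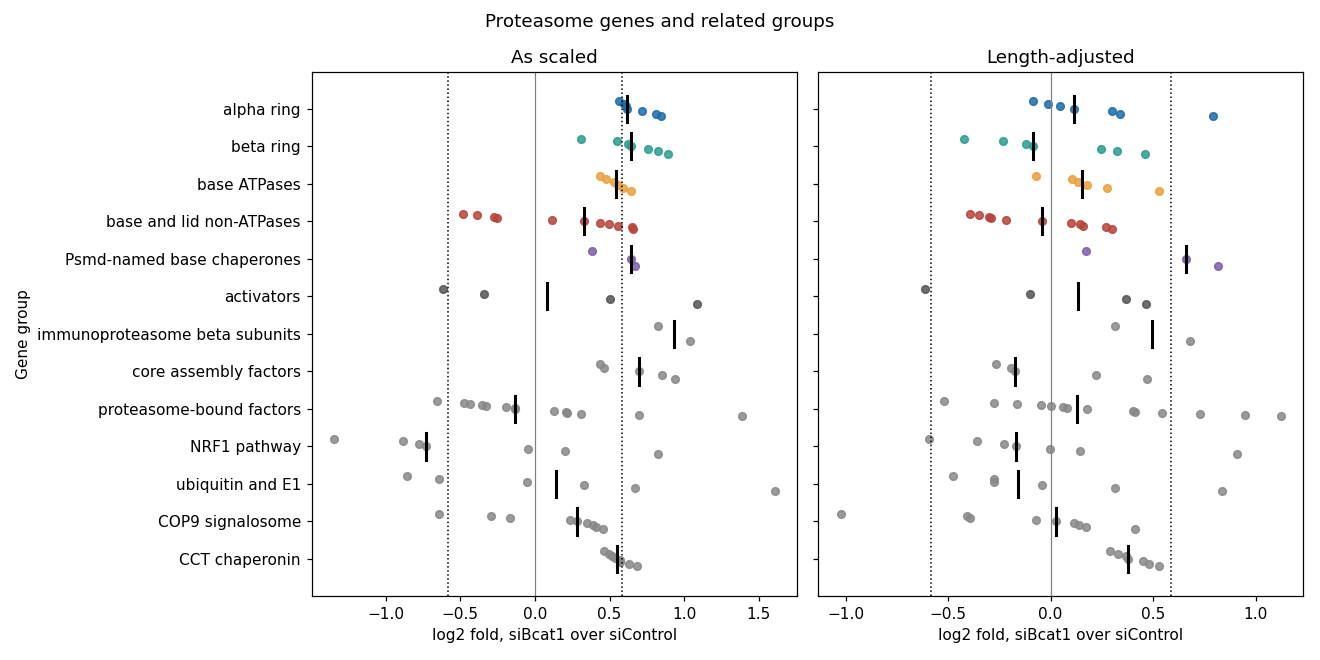
Log2 folds, siBcat1 over siControl, of proteasome genes by role and of related groups, as scaled on the left and length-adjusted on the right; each point is a measured gene, black bars are group medians and dotted lines mark 1.5-fold. The core, the ATPases and CCT form tight groups above 0 as scaled. After adjustment the roles of the members have medians from -0.086 to 0.16, other than the 3 chaperones at 0.66 (0.23 with implied lengths). Outside the members, the immunoproteasome genes have an adjusted median of 0.50 and the core assembly factors -0.17.

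Counting could mix reads for some members. Exons of 10 of the 40 genes share bases with another annotated gene, 9 of them with a gene on the opposite strand, and nothing in the labels says whether counting used strand. The shared part was 12.1% of exon bases or less in every case but Psmd9. Pseudogene copies named after Psmb5, Psmb6 and Psmb7 are annotated, 4 in all, so at least these 3 genes carry that uncertainty too. Only pseudogenes with a member's symbol and the suffix -ps were searched, so copies of other members under other names were not counted.

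**Figure D5:**
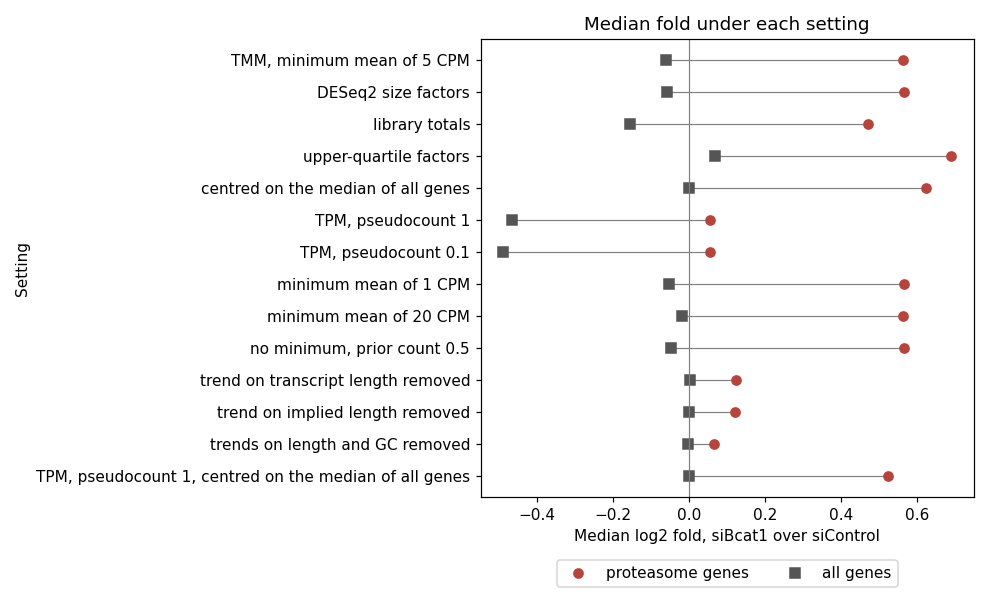
Median log2 fold, siBcat1 over siControl, of the measured proteasome genes (circles) and of all measured genes (squares) under each setting. The circles lie right of the squares throughout, and closest to them where trends on length, implied length, or length and GC content were removed (0.12, 0.12 and 0.065 for the proteasome genes).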

How the data were processed

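RNA was sequenced from 1 library of siBcat1 and 1 of siControl cells, grouped by the treatment label. Per the labels' protocols, libraries were built with a stranded mRNA kit. The submitters' processing notes list FastQC, Trimmomatic, HISAT2 and StringTie and the build mm10, without roles or settings. The deposited table holds raw read counts per gene, and the authors also deposited TPM values for each library, named so in the headers.

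Counts were scaled with TMM (edgeR 4.0.16, R 4.3.3), and genes below a mean of 5 CPM were left out. No test was made. Fold intervals are exact binomial intervals of the siBcat1 share of both counts. Transcript lengths are medians over GENCODE M21 transcripts matched by RefSeq accession; the trend was a lowess curve over 9887 genes (fraction 0.3, 3 iterations, statsmodels 0.14.6). The implied length is proportional to counts over TPM. Calculations were tested on simulated data. Alternatives were DESeq2 1.42.0 size factors, other scalings, TPM with pseudocounts of 1 and 0.1, other minima, thresholds and length corrections; centring of TPM was chosen after seeing the data. Members, roles and gene lists were chosen with earlier results of these data known. Named genes are the highest and lowest of each role or list, catalytic and activator genes, Psmd4, Psmd14, Psmb8 to Psmb10, Nfe2l1, Nfe2l2 and Bcat1; further members were named after their values were seen. Of the listed genes, Paaf1 and Cops9 were not used here. Sem1 and Ecpas were found under the older symbols Shfm1 and AI314180, and Hrd1 as Syvn1. A gene of the related lists is not reported here and was left out of their counts.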

Additional observations from a re-analysis of the deposited data

How the results depend on the processing

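With 1 library a group, no replicate could be left out, and counting intervals do not cover the spread between cultures. No paired analysis was possible because each group has 1 library. DESeq2 size factors and minima of 1, 20 or no CPM kept the counts within 1.5 times and left the median between 0.56 and 0.57. The 18 members at least 1.5-fold higher became 7 with library totals, 0 with TPM at either pseudocount, 3, 1 and 2 with the trend on annotated length, implied length, or length and GC content removed, and 1 at a 2-fold limit. The 1 lower member became 6 with TPM at either pseudocount, and 0 with upper-quartile factors, centring on all genes, length and GC trends removed, a 2-fold limit, or whole intervals past 1.5-fold. The median of 0.56 became 0.47 with library totals, 0.69 with upper-quartile factors, 0.62 centred, 0.056 with TPM at either pseudocount, 0.12 with either length trend removed, 0.065 with length and GC trends removed, 0.52 with centred TPM, and 0.44 as a mean. The summed fold of 0.44 became 0.35 with library totals, 0.57 with upper-quartile factors and 0.043 with summed TPM. The TPM values differ from scaled counts by the constant given above; for the other shifts the cause was not tested. Medians or genes past 1.5-fold that changed sign were, with annotated length, the beta ring (-0.086), Psma6 (-0.087), Psmb5 (-0.086) and Psmb6 (-0.12); with implied length, Psma6 (-0.019) and Psmb5 (-0.070); and with length and GC, Psma1 (-0.12), Psma6 (-0.20) and Psmd10 (-0.051).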
